A study of Mus musculus with 2 samples.

Results

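Neutrophils arise in the bone marrow from granulocyte-monocyte progenitors through an ordered series of stages, and each stage packs its own set of granules. Promyelocytes transcribe the azurophil granule proteases first, myelocytes and metamyelocytes then transcribe the specific granule proteins, and the gelatinase granule genes come on as the nucleus segments. The calprotectin subunits S100A8 and S100A9 are among the most abundant proteins of the maturing cell. The cells described here were the maturing neutrophil-like cells of the Trmt6 WT library, found in a sort meant to hold haematopoietic stem and progenitor cells (HSPCs).

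Members were WT cells with more than 200 detected genes and under 10% mitochondrial UMIs (unique molecular identifiers, which count single captured transcripts) in which the UMIs of S100a8, S100a9, Ngp, Camp and Ltf summed to 100 or more per 10000 UMIs of the cell. There were 98 members among 8815 WT cells, a share of 1.11% (95% Clopper-Pearson interval 0.903 to 1.35%). Under the same gate 0 of 9216 Trmt6 cKO cells were members, with a Clopper-Pearson upper limit of 0.0400%. Intervals are at 95% throughout and include no error but that of counting. The members were thus chosen by the measured levels of these 5 gate genes, whose values are given as a description.

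The data came from single-cell RNA sequencing of Lin- Sca-1+ c-Kit+ (LSK) bone marrow cells of mice aged 3 months on a C57BL/6 background, with 1 library per genotype. TRMT6 is the non-catalytic part of the tRNA m1A methyltransferase. The labels give the Trmt6 WT mice as Trmt6fl/fl and the Trmt6 cKO mice as Trmt6fl/fl, MX1-cre, whereas the study describes Mx1-Cre and polyI:C injection in both genotypes. Mx1-Cre is an interferon-inducible recombinase that acts beyond blood stem cells, and how many mice each library pooled was not given in the sources used here. With 1 library each, genotype and library cannot be told apart, and no value below has a replicate check. The members held 780502 UMIs and the other 8717 WT cells 47167400 UMIs. The cKO library was the deeper one, with a median of 10305.5 UMIs per cell against 4344 in WT. The libraries shared 24 barcodes, and 0 of them were members.

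The gate genes lie in 2 chromosomal neighbourhoods. S100a8 (chr3:90668978-90670035) and S100a9 (chr3:90692632-90695721) are neighbours on chromosome 3 of GRCm38, while Camp (chr9:109847379-109849617), Ngp (chr9:110419747-110423012) and Ltf (chr9:111019271-111042767) lie on chromosome 9. All 5 are protein-coding. Their promoters are shown because the gene for the granulocytic factor C/EBP epsilon, Cebpe, was itself among the transcripts high in the members. Each window runs from 250 bases before to 50 bases after the annotated RefSeq start (GRCm38.p6) and is written 5′ to 3′ on the gene's own strand. The letters TTGCNNAA and their reverse complement TTNNGCAA, which resemble the C/EBP site, are in capitals. The promoters of Lcn2 and Fcnb, granule genes outside the gate, are added for comparison.

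S100a8, chr3:90668821-90669120, plus strand: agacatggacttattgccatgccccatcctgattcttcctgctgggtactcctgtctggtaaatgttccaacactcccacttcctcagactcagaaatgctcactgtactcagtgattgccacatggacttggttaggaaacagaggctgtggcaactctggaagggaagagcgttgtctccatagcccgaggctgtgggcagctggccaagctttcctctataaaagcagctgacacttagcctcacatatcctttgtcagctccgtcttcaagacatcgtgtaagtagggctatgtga
S100a9, chr3:90695672-90695971, minus strand: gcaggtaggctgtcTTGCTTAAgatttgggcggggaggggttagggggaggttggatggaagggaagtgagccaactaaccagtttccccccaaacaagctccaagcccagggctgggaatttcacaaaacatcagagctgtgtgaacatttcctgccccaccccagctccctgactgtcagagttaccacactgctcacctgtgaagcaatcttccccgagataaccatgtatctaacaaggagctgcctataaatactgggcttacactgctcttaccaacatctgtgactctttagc
Ngp, chr9:110419558-110419857, plus strand: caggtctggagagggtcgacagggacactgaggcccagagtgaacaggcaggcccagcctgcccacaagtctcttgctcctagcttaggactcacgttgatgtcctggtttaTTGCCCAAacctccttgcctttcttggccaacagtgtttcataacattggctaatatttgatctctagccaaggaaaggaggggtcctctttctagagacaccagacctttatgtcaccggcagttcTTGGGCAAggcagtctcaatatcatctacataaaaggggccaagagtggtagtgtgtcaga
Camp, chr9:109849407-109849706, minus strand: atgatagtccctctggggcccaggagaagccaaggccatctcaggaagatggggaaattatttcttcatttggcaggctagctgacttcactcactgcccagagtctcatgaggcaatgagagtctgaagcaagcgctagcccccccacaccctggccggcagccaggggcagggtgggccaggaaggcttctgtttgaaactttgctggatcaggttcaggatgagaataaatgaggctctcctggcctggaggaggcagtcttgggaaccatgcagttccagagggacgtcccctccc
Ltf, chr9:111019042-111019341, plus strand: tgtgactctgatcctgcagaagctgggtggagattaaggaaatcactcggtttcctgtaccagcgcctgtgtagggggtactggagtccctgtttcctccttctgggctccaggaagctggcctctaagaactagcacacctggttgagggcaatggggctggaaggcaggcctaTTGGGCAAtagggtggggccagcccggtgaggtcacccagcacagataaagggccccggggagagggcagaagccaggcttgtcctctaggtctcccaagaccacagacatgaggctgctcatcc
Lcn2, chr2:32387690-32387989, minus strand: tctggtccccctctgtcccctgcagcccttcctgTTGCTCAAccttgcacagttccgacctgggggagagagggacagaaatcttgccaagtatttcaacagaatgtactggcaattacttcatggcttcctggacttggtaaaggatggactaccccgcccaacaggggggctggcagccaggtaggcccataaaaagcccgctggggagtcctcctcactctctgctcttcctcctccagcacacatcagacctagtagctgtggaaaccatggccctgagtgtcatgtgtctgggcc
Fcnb, chr2:28084829-28085128, minus strand: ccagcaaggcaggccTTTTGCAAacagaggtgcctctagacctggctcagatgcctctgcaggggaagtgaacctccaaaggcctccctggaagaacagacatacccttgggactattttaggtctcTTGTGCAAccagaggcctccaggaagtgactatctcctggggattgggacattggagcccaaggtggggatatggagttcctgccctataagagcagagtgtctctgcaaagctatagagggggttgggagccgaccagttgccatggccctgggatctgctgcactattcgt

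These letters stood in 3 of the 5 gate gene promoters (S100a9, Ngp and Ltf) and not in the S100a8 and Camp windows. Ngp and Fcnb held 2 copies each. Of the 20 genes with the highest ratios in the members, 18 had a promoter in the RefSeq table and 7 of them (38.9%) held the letters. These were Fcnb, Lcn2, Ly6g, Retnlg, Pilra, Pilrb1 and Pilrb2. The Pilr genes share a family name, so their matches need not be independent. Among the 10 lowest, 8 had a promoter and 1 (12.5%), that of Pf4, held them. Over all 32851 promoters of the same length the share was 10.8%. That share counts promoters, whereas a gene above counted when any of its promoters held the letters. A match of letters is a description and not a binding site.

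The gate separated the members from the rest of the library with few cells between. Members had a median of 3983 gate UMIs per 10000, or 39.8% of a cell's UMIs, and a maximum of 6173 per 10000. Other WT cells had a median of 1.81 per 10000. The members just inside the threshold had 123, 212, 219, 279 and 344 gate UMIs per 10000, and the cells just outside had 72.8, 69.8, 63.7, 58.4 and 53.8. Of the 98 members, 85 had 1000 or more per 10000.

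**Figure D1:**
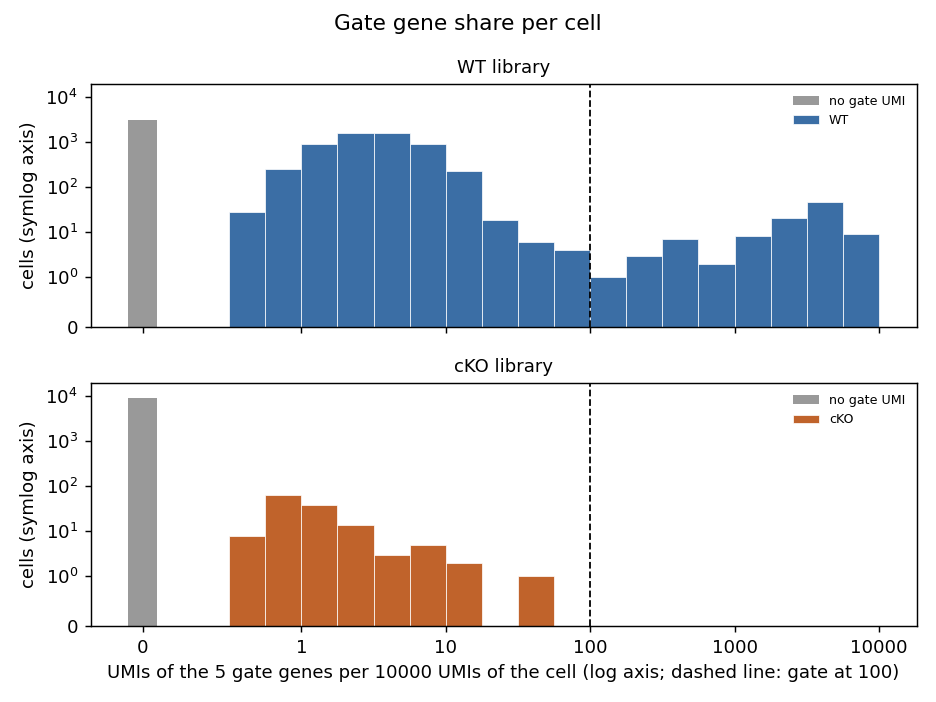
Number of cells (symlog axis) by UMIs of the 5 gate genes per 10000 UMIs of the cell (log axis), for the WT library above and the cKO library below, with the gate at 100 as a dashed line and cells with no gate UMI in grey. The WT library has a separate group of 98 cells at the right with a median of 3983, and the highest cKO cell lies at 33.7.

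In the cKO library the highest cell had 33.7 gate UMIs per 10000, and 3 cKO cells had 10 or more against 358 WT cells, members included. That highest cell held 113 gate UMIs among 33568 and was rich in azurophil transcripts, with 634 UMIs of Mpo, Elane, Prtn3 and Ctsg per 10000. At the WT share 102 cKO cells would have passed the gate. Of the azurophil transcripts, which precede the gate genes in maturation, Elane and Mpo were also lower in the cKO library. The cKO levels of the other genes of that list are not reported here. Elane, neutrophil elastase, was at 41.6 CPM (UMIs per 1000000) in the cKO cells against 1707 CPM in the WT cells outside the gate. Mpo, myeloperoxidase, was at 93.6 against 2283 CPM. Several genes that were high in the members had few UMIs in cKO. Cd177 and Orm1 had 0 UMIs there, against 26 and 3 in the WT cells outside the gate. Ly6g and C5ar1 had 1 UMI each, against 0 in those WT cells, so they were not lower in cKO. Chil3 and Retnlg had 5 UMIs each, against 131 and 21, and Wfdc21 had 60 against 206. Cebpe was at 0.946 CPM against 18.2 CPM in the other WT cells. Of the specific granule genes outside the gate, 7 reached 10 CPM in the cKO cells or in the WT cells outside the gate. Of these, 1 was more than 2-fold lower in cKO (Hp, haptoglobin, at 1.07 against 39.2 CPM) and 0 more than 2-fold higher, against 4.68% and 2.58% of all 7371 genes at that level. Within 2-fold, 3 genes of the list were higher in cKO: Lcn2 (6.33 against 4.20 CPM), Pglyrp1 (62.5 against 46.9 CPM) and Adpgk (25.7 against 16.8 CPM). Cyba was at 260 against 262 CPM.

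S100a8 and S100a9, the calprotectin subunits, were found in 98 of 98 members at 154568 CPM and 74182 CPM. The antimicrobial granule proteins Ngp, neutrophilic granule protein, and Camp, the cathelicidin precursor, were each found in 91 members, at 57850 and 44227 CPM. Ltf, the iron-binding lactoferrin of specific granules, was found in 76 members at 3751 CPM. Together the 5 genes took 33.5% of all member UMIs. The kit counts 1 end of each transcript, so these levels were not divided by gene length.

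Gate UMIs were also spread thinly over the rest of the WT library. At least 1 gate UMI was found in 64.4% of WT cells and in 1.49% of cKO cells. The WT cells outside the gate had 1.13 gate UMIs per cell, 3.62% of the WT gate UMIs. Their make-up was near that of the members: S100a8 made 46.2% of the gate UMIs in members and 39.8% in other WT cells, S100a9 22.2% and 22.1%, Ngp 17.3% and 21.1%, Camp 13.2% and 15.8%, and Ltf 1.12% and 1.18%. Cells that should lack these transcripts carried them too. The 29 WT cells gated on B cell markers had 414 CPM of gate genes (335 to 505), against 208 CPM in all WT cells outside the gate. Their 42 S100a8 UMIs lay in 9 cells, a clustering that the interval does not include. The 7 WT cells gated on T and NK cell markers had 359 CPM (155 to 707, from 8 UMIs). The azurophil-gated cells described below had 141 CPM (133 to 149). The part of free transcripts in these low levels was not tested.

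**Figure D2:**
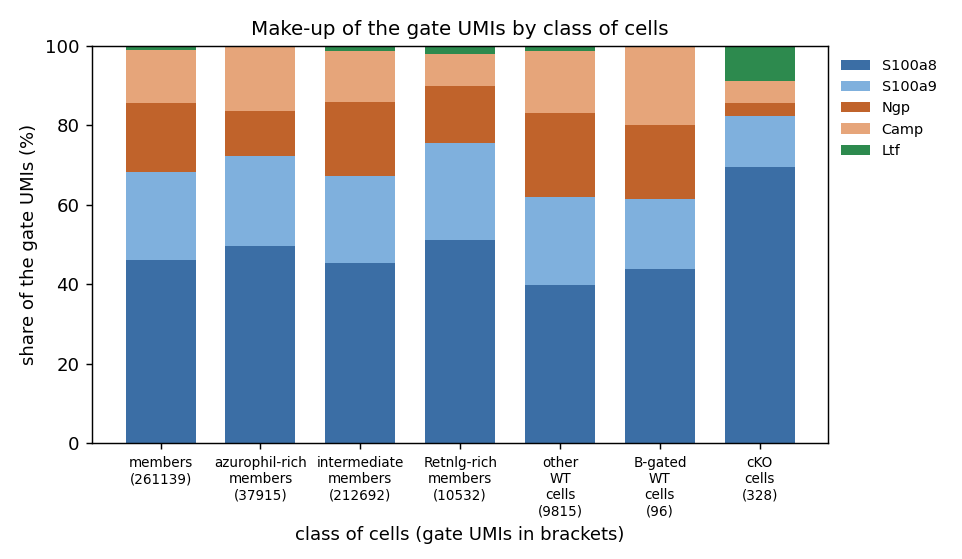
Share (%) of the gate UMIs taken by each of the 5 gate genes in each class of cells, with the number of gate UMIs in brackets. S100a8 takes 46.2% in members and 39.8% in other WT cells, and the cKO bar rests on 328 UMIs.

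Neutrophil markers outside the gate were looked at to check the name neutrophil-like. Lcn2, Cd177, Chil3, Ly6g, Cebpe and Retnlg were each found in 34 to 88 members. Mmp8 (6 members) was rare. Csf3r, the G-CSF receptor gene, was found in 24 members at 41.0 CPM against 27.1 CPM in other WT cells. The genes of the sort itself were lower in the members than in the rest of the library. Kit, which encodes c-Kit, was found in 12 members and in 2395 of the 8717 other WT cells, at 19.2 against 63.7 CPM. Ly6a, which encodes Sca-1, was found in 3 members and in 1328 other WT cells, at 3.84 against 34.7 CPM. In contrast Itgam, which encodes CD11b, was found in 58 members and Ly6g, a target of the Gr1 antibody, in 34, although both antibodies stand in the study's lineage cocktail.

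Of 7505 genes at 10 CPM or more in the members or in the other WT cells, 507 (6.76%) were more than 2-fold higher and 2788 (37.1%) more than 2-fold lower in the members, with a median log2 ratio of -0.72 over all genes. The gate genes fill a large part of the members' total, which leaves a smaller share for every other gene. With the gate genes left out of the totals, 954 genes (12.7%) were higher and 1283 (17.1%) lower, the higher share of the calls went from 15.4% to 42.6%, and all log2 ratios rose by 0.59. Ratios below are on the scale of all UMIs, and a direction that turns without the gate genes is named as such. Of 261 listed genes tested, 33 turned from below to above 0 on leaving the gate genes out. A gene under 10 CPM in the other WT cells could pass the minimum only where it was high in the members, so list counts are also given for the genes at 10 CPM or more in the other WT cells.

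The largest ratios at 50 CPM or more were those of Ly6g, C5ar1 and Orm1, genes that passed the minimum only through the members. Ly6g had 79 UMIs in 34 members and 0 in 8717 other WT cells, at least 1591-fold higher when 3 counts over all other cells are taken as the floor. C5ar1, the receptor for the chemoattractant C5a, had 49 UMIs in 34 members and 0 elsewhere, at least 987-fold higher. By the same floor of 3 counts, each 0 allows up to 0.0344% of the other cells to hold a UMI, which is no limit on cells expressing the gene. Orm1, an acute phase protein also stored in granules, had 140 UMIs in 48 members against 3 in all other cells, a log2 ratio of 11.24 (9.88 to 13.76).

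Among the 16 specific granule genes outside the gate with 10 CPM or more, 16 were more than 2-fold higher and 0 lower, with a median log2 ratio of 7.05. Of these, 9 passed the minimum only through the members. The other 7 genes, at 10 CPM or more in the other WT cells, were all higher. Chil3, a chitinase-like secretory protein, was at 3222 CPM in the members and 2.78 CPM in other WT cells, a log2 ratio of 10.18 (9.93 to 10.44). Lcn2, the siderophore-binding lipocalin, was at 3089 against 4.20 CPM, a log2 ratio of 9.52 (9.31 to 9.74). Cd177, a surface partner of proteinase 3, was at 601 against 0.551 CPM in 75 members. Fcnb, a ficolin of the lectin complement pathway, was at 1885 against 2.01 CPM. Itgb2l, a beta integrin-like gene of granulocytes, was at 150 against 0.148 CPM. The smallest ratio of the list was that of Cyba, 2.85, a gene that many blood cells transcribe. Olfm4 had 1 member cell with a UMI and Bpi 0, and both stayed under 10 CPM.

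**Figure D3:**
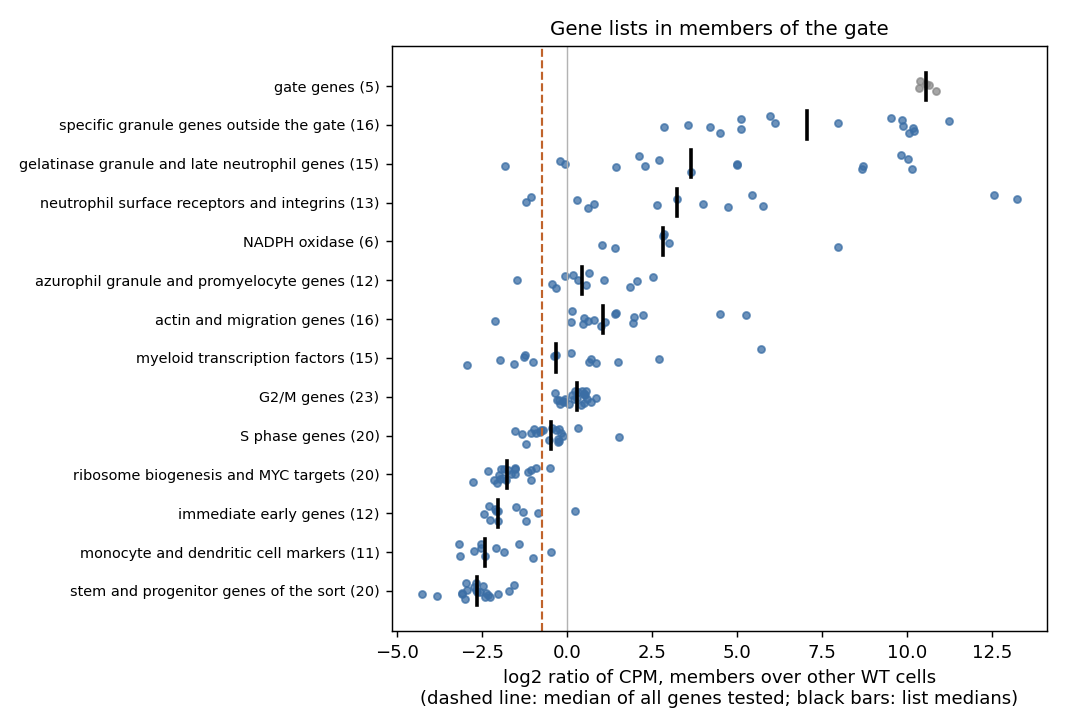
log2 ratio of CPM (members over other WT cells) for each gene at 10 CPM or more in 14 gene lists, one point per gene, with the list median as a black bar and the median of all genes (-0.72) as a dashed line. Of the 16 points of the specific granule list (median 7.05), 9 are genes that reached 10 CPM only in the members. The gate genes are in grey, and the stem and progenitor list (median -2.65) lies furthest to the left.

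The gelatinase granule and late neutrophil genes were more uneven. Of 15 genes at 10 CPM or more, 12 were higher and 1 lower, with a median of 3.64, and 9 further genes of the list were under 10 CPM. Of the 12 higher genes, 8 passed only through the members. Of the 7 at 10 CPM or more in the other WT cells, 4 were higher and 1 lower. Wfdc21, a whey acidic protein, was at 4548 against 4.37 CPM and was found in 92 members. Retnlg, resistin-like gamma, a gene of late neutrophils, was at 411 against 0.445 CPM but in 39 members. Mmp9, the gelatinase itself, was found in 18 members at 47.4 CPM. Fpr2, a formyl peptide receptor, was found in 19 members at 35.9 CPM. Cxcr2, the receptor for the chemokines that draw neutrophils out of the marrow, was at 17.9 CPM in the members and 21.2 CPM elsewhere, a direction that turned without the gate genes in the totals (log2 ratios of -0.19 and 0.39). Clec4d, a C-type lectin, was the gene more than 2-fold lower, at 6.41 against 24.9 CPM. Stfa2, Stfa3, BC100530, Asprv1 and Slc11a1 had 0 UMIs in the members.

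Of 13 surface receptors and integrins, 8 were more than 2-fold higher and 2 lower, and without the gate genes in the totals these were 10 and 0. Of the 6 at 10 CPM or more in the other WT cells, 1 was higher and 2 lower. Itgam was at 136 against 8.50 CPM, and its beta chain Itgb2 was at 229 against 8.67 CPM in 70 members. Selplg, which encodes the P-selectin ligand PSGL-1, was among the lower genes, with a log2 ratio of -1.20. Cxcr4, which holds neutrophils in the marrow, was at 17.9 against 15.2 CPM.

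The 6 genes of the NADPH oxidase, which makes the superoxide of the respiratory burst, were all more than 2-fold higher, with a median log2 ratio of 2.84, and 5 of them were at 10 CPM or more in the other WT cells. Cybb, the catalytic gp91phox subunit, was at 368 against 1.44 CPM, a log2 ratio of 7.99 (7.61 to 8.40). The cytosolic subunits Ncf1 (3.02) and Ncf4 (2.83) and the GTPase gene Rac2 (1.42) differed less. Of 10 eicosanoid and inflammatory genes, 6 were more than 2-fold higher and 2 lower (3 and 2 of the 7 at 10 CPM or more in the other WT cells). Alox5, which makes leukotriene precursors, was at 67.9 against 1.14 CPM, and Ltb4r1, the leukotriene B4 receptor, was at 215 against 11.9 CPM. Alox5ap, which presents the substrate to that enzyme, had a log2 ratio of 0.98. The chemokine genes Ccl3 (-3.17) and Ccl4 (-2.60) were the lower ones, while the chemokine gene Cxcl2 was at 30.7 against 12.1 CPM, found in 5 members.

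Azurophil transcripts, of the stage before specific granules, were split. Of 12 azurophil and promyelocyte genes, 4 were higher and 1 lower than in other WT cells (6 and 0 without the gate genes in the totals). Elane had a log2 ratio of 2.53, while Mpo had 0.67, Prtn3 0.34 and Ctsg -0.32. The ratio of Ctsg, cathepsin G, was above 0 without the gate genes in the totals. The gene lower by more than 2-fold was Calr, a chaperone of the endoplasmic reticulum, at -1.46.

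Of 15 myeloid transcription factors, 3 were more than 2-fold higher and 5 lower (6 and 2 without the gate genes, where the median turned from -0.33 to 0.26). Of the 14 at 10 CPM or more in the other WT cells 2 were higher and 5 lower. Cebpe, needed for specific granules, was at 955 against 18.2 CPM and was found in 86 members, a log2 ratio of 5.71. Gfi1, a repressor of the monocyte programme, had a log2 ratio of 1.51, and Mxd1, a MYC antagonist, of 2.72. Irf8, which drives monocytes and dendritic cells, was the lowest at -2.93. Myc (-1.96) and Myb (-1.55) of the progenitor programme were lower. Cebpa, the factor of granulocyte commitment, was found in 4 members, with a ratio of -1.25. Cebpb and Spi1 stayed within 2-fold, at 0.87 and 0.67.

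Genes of other fates were low. Of 20 stem and progenitor genes 0 were higher and 20 lower, with a median of -2.65 (0 and 19 without the gate genes). Procr, which marks long-term stem cells, had 0 UMIs in the members, Hlf was at 7.69 against 70.3 CPM and Cd34 at 66.6 against 356 CPM. Of 11 monocyte and dendritic cell markers 0 were higher and 9 lower, among them Cd74, the invariant chain, at -3.16. Dntt, the DNA polymerase of early lymphoid cells, had the lowest ratio of those reaching 50 CPM in either class, -4.86 (-6.90 to -3.67). Mfge8 (-4.84), Pf4 of platelets (-4.77) and Cpa3 of mast cells and basophils (-3.48) were also among the 10 lowest. Of 5 megakaryocyte markers 0 were higher and 3 lower (0 and 2 without the gate genes), with a median of -1.58. B cell markers summed to 9 UMIs and T and NK cell markers to 2 UMIs over the 98 members. Of 7 erythroid markers 5 were lower and 1 was higher, Car1, whose UMIs all came from 1 member marked as a likely doublet. Its ratio of 1.33 turned to -4.88 with marked cells left out.

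Likely doublets, scored against simulated pairs of cells, made up 15 of 98 members (15.3%) and 7.04% of other WT cells. The stem and progenitor list had a median of 0 UMIs per 10000 in the 83 members that were not marked, with 42 of them at 0, and of 9.48 in the 15 marked members. In other WT cells the median was 22.2. Without the marked cells 545 genes were higher and 3159 lower, and the median of all genes was -0.82.

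Each G2/M gene stayed within 2-fold in its summed level, but the levels per cell differed more. The list median per cell was 55.9 UMIs per 10000 in the members and 16.6 in other WT cells. It was 49.5 in the azurophil-gated cells described below. Of 23 G2/M genes 0 were more than 2-fold higher and 0 lower, with a median of 0.31 (10 and 0 without the gate genes, median 0.90). Top2a, topoisomerase II alpha, was found in 57 members at 255 against 298 CPM, a direction that turned without the gate genes in the totals, and Mki67, the antigen Ki-67, in 55 members at 155 against 110 CPM. Of 20 S phase genes 1 was higher, Rrm2 of the ribonucleotide reductase (1.53), and 4 were lower, with a median of -0.48 that turned to 0.11 without the gate genes. The growth programme was low instead. Of 20 ribosome biogenesis and MYC target genes 0 were higher and 18 lower (0 and 12 without the gate genes). Npm1, nucleophosmin of the nucleolus, was at 404 against 1582 CPM.

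Of 87 cytosolic ribosomal protein genes 0 were higher and 81 lower (1 and 12 without the gate genes), and of 12 mitochondrially encoded genes 0 were higher and 12 lower (0 and 1). Without the gate genes these shares of lower genes were below the 17.1% of all genes, while the list medians of -0.82 and -0.70 were below the -0.13 of all genes. The median mitochondrial share was 0.835% of UMIs in the members and 2.51% in other WT cells. Of 16 actin and migration genes 9 were higher and 1 lower (8 and 1 of the 15 at 10 CPM or more in the other WT cells). Lgals3, galectin-3, was at 268 against 6.95 CPM, and Tmsb4x, thymosin beta 4, was at 12853 against 2710 CPM. The thymosin Tmsb10 was the lower one, at -2.12. Of 12 immediate early genes 0 were higher and 10 lower (0 and 7), with Jun at 311 against 1499 CPM. Of 12 interferon-stimulated genes 1 was higher and 7 lower (1 and 5), and the higher one was Ifitm6, at 725 against 3.16 CPM. Of the 11 at 10 CPM or more in the other WT cells 0 were higher and 7 lower. Of 14 glucose and iron handling genes 5 were higher and 1 lower (2 and 1 of the 11 at 10 CPM or more in the other WT cells). Slc40a1, the iron exporter ferroportin, had the highest ratio of these, at 74.3 against 0.806 CPM, and the ferritin gene Fth1, of iron storage, was the lower one at -1.69. Of the 5 m1A writers and erasers 0 were higher and 3 lower (0 and 2). Trmt6 itself was found in 17 members at 28.2 against 64.4 CPM. It was the median gene of this list, at -1.16, and was within 2-fold without the gate genes in the totals, at -0.57.

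Members had more UMIs per cell than other WT cells but not more detected genes. They had a median of 7399 UMIs and 1614.5 genes, against 4327 UMIs and 1698 genes. With every cell thinned to 2000 UMIs, which left out 9 members and 196 other cells, the medians were 664 and 992 genes. The gate genes took a median of 39.8% of a member's UMIs, which leaves fewer UMIs for all other genes at any depth. Gene counts without the gate UMIs were not made.

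The members were also set against azurophil-gated cells, the 682 WT cells outside the gate with 100 or more UMIs of Mpo, Elane, Prtn3 and Ctsg per 10000. Of 7138 genes, 531 (7.44%) were more than 2-fold higher in the members and 2346 (32.9%) lower (1061 and 941 without the 9 genes of both gates in the totals). Ribosome biogenesis genes were lower for 19 of 20. Itgb2l (117 UMIs), Ly6g, C5ar1 and Cd300lf (44 UMIs), an inhibitory receptor, had 0 UMIs in those 682 cells. Chil3 had 11 UMIs there, a log2 ratio of 11.23 (10.45 to 12.30). Genes of the monocyte and basophil branches, which were also transcribed in those 682 cells, were among the lowest. F13a1, the coagulation factor of monocytes, was at 6.41 against 193 CPM, and the basophil protease gene Mcpt8 had a log2 ratio of -3.40. The basophil protease gene Prss34 had a ratio of -4.68, but its 701 UMIs came from 10 of the 682 cells, and 2 members also held it. Lgals1, galectin-1, was at 83.3 against 928 CPM.

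The 98 members differed among themselves. Their share of Mpo, Elane, Prtn3 and Ctsg UMIs ran from 0 to 1138 per 10000 with a gap between 89.7 and 161. The 23 azurophil-rich members lay above the gap. Among the other 75, the 11 Retnlg-rich members had 10 or more Retnlg UMIs per 10000 (lowest 11.5, with 7.92 the highest below), and 64 intermediate members remained. This division was chosen after the values were seen, so the genes below describe it. Over the 98 members the gate share and the azurophil share had Pearson's r = -0.64 and Spearman's rho = -0.79, and -0.64 and -0.73 with the azurophil share taken without the gate genes in the total. This is a description over cells of 1 library, and the gate share is the value that chose the members.

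**Figure D4:**
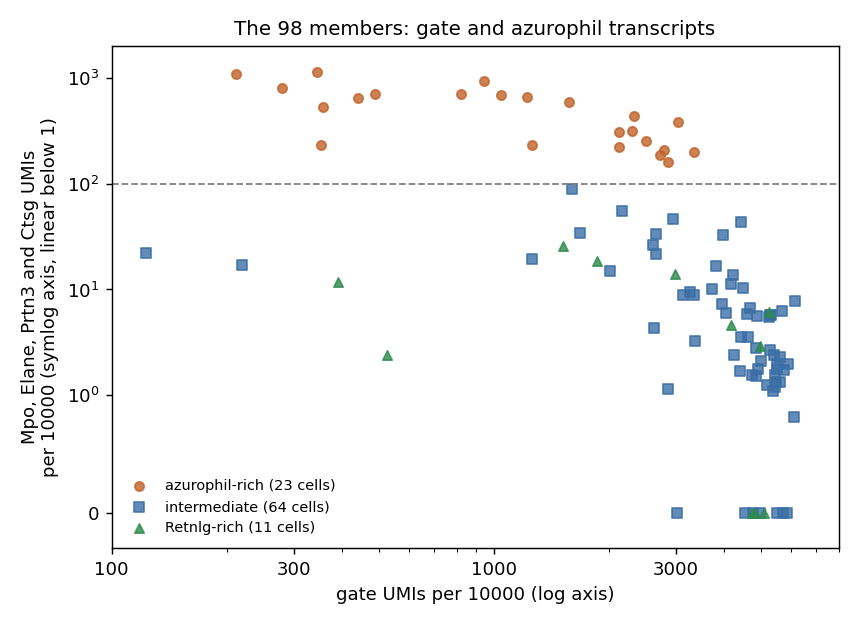
Each of the 98 members by gate UMIs per 10000 (log axis) and UMIs of Mpo, Elane, Prtn3 and Ctsg per 10000 (symlog axis, linear below 1), coloured by class with the split at 100 dashed. The 23 azurophil-rich members have a median of 1264 gate UMIs per 10000, against 4618 in the 64 intermediate members and 4195 in the 11 Retnlg-rich members.

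The azurophil-rich members carried Elane at 30086 CPM and Mpo at 10750 CPM, against 8792 and 8828 CPM in the azurophil-gated cells outside the gate. Ctsg was lower in them, at 2076 against 3337 CPM. All 3 are among the genes that define both classes. Elane was at 313 CPM in the intermediate and 31.7 CPM in the Retnlg-rich members, where it rested on 1 UMI. Fcnb had the same order, at 3097, 1397 and 0 CPM. Ltf ran the other way. It was at 80.0 CPM in the azurophil-rich members, with 7 of 23 cells positive, against 5419 and 6467 CPM. Lcn2 was at 424, 4423 and 3107 CPM, and Chil3 at 1324, 4337 and 634 CPM. Cebpe was at 828, 1036 and 666 CPM, found in 23 of 23, 59 of 64 and 4 of 11 cells. Ly6g was at 4.0, 128 and 444 CPM.

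The Retnlg-rich members, set apart by Retnlg itself, also had the highest Mmp8, Mmp9 and S100a6 of the 3 classes. Retnlg was at 8845 CPM in them, 82.2 CPM in the intermediate and 4.0 CPM in the azurophil-rich members. Mmp8, neutrophil collagenase, was at 1141 CPM (36 UMIs in 5 of 11 cells) against 14.0 and 0 CPM. Mmp9 was at 634 CPM (9 of 11 cells) against 34.1 and 0 CPM. S100a6, a further calcium-binding S100 protein, was at 2853 against 168 and 16.0 CPM. The late gene Wfdc21 was present in all 3 classes. It was at 6404 CPM in the Retnlg-rich, 5425 CPM in the intermediate and 2564 CPM in the azurophil-rich members. These values rest on 31544 UMIs in 11 cells.

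**Figure D5:**
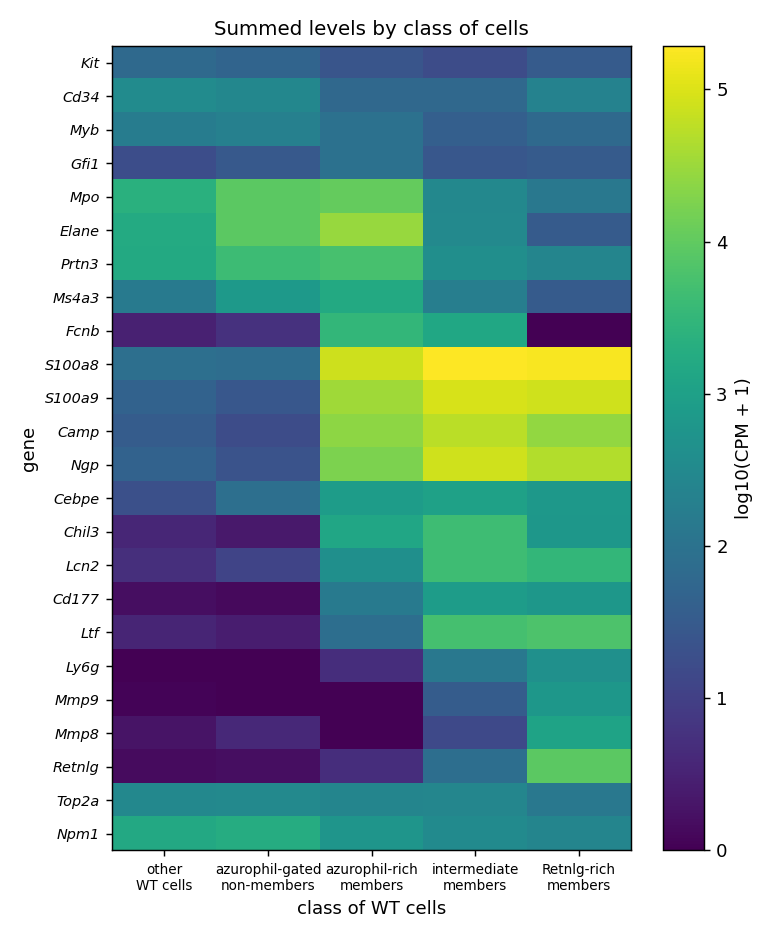
Summed level of 24 genes as log10(CPM + 1) in 5 classes of WT cells, with brighter colours for higher levels. Elane falls from 30086 CPM in azurophil-rich members to 31.7 CPM in Retnlg-rich members, and Retnlg runs from 4.0 to 8845 CPM.

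Cell cycle genes and depth differed between the classes. G2/M genes summed to a median of 49.2 UMIs per 10000 in the azurophil-rich, 68.7 in the intermediate and 13.7 in the Retnlg-rich members, and S phase genes to 28.1, 11.4 and 1.91. Without the gate genes in the totals, the summed S phase genes were at 30.6, 26.3 and 4.28 per 10000 and the G2/M genes at 63.8, 113 and 42.4, with 9 S phase UMIs in the Retnlg-rich members. Top2a was at 256, 263 and 127 CPM, the last from 4 UMIs. The median depth was 10070, 6822 and 2491 UMIs per cell, and at 2000 UMIs the medians were 866, 624 and 556.5 genes. These gene counts include the gate UMIs, whose medians were 1264, 4618 and 4195 per 10000. The mitochondrial share had medians of 1.43, 0.634 and 0.459%. Ribosome biogenesis genes had medians of 38.9, 15.7 and 11.5 per 10000. Marked doublets were 1, 13 and 1 of these cells, while the median doublet scores were 0.62, 0.18 and 0.10, against 0.28 in other WT cells.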

How the data were processed

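Single-cell RNA was measured in 1 Trmt6 WT and 1 Trmt6 cKO library. The values are raw UMI counts per gene and cell barcode as deposited, quantified by the authors with Cell Ranger 6.0.0 (submitters' processing notes) on GRCm38 (mm10); the labels name version 2 of the kit and the methods version 3. The WT library held 8869 barcodes and 47991455 UMIs, the cKO library 9260 barcodes and 98323201 UMIs. Reads were not analysed here.

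Cells with more than 200 genes and under 10% mitochondrial UMIs were kept (8815 and 9216). UMIs were summed over the cells of a class and scaled to CPM. Ratios carry a prior of 0.5 counts and a conditional binomial interval, levels a Poisson interval and shares a Clopper-Pearson interval (scipy 1.17.1). Cells of 1 library are not replicates, so no test was run and no p-value is given; a gene counts as higher or lower past 2-fold. A 0 was set to 3 counts for bounds. Named genes were the 20 highest and 10 lowest ratios at 50 CPM or more outside the gate (10 and 10 against azurophil-gated cells), besides the gate genes and members of 24 lists taken by role. The members and lists were chosen with earlier results of these data known. Of the listed symbols, 2 were not found (Trbc1 and Cavin2). Cells gated on B or T and NK cell markers had UMIs of 3 or more markers.

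Doublets were kept, and were scored as the share of simulated pairs among 50 neighbours in 20 components of 1500 genes, marking 0.8% per 1000 barcodes. Gene coordinates came from GENCODE M21. The code for the ratios was checked on simulated counts with known folds. Alternatives covered the gate, cell limits, doublets, scaling (with the TMM factor of edgeR 4.0.16), minimum levels and thinning. Single values of some genes in the lists are not reported here.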

Additional observations from a re-analysis of the deposited data

How the results depend on the processing

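The gate held 83 to 103 WT members and 0 cKO members under all 7 alternatives tried. A gate on Ngp, Camp and Ltf alone kept 84 WT members, and the 14 it lost were 8 azurophil-rich, 2 intermediate and 4 Retnlg-rich cells. Members against other WT cells gave 954 higher and 1283 lower genes with totals without the gate genes, 1043 and 1164 with the TMM factor, 1076 and 1114 with median-of-ratios factors, 4830 and 4567 with no minimum level, and 221 and 1061 at a minimum of 50 CPM. The higher share of the calls was 42.6 to 49.1% under the first 3 of these, 51.4% with no minimum, 17.2% at 50 CPM and 17.4% with each cell scaled before averaging (715 and 3389 genes), against 15.4%. Against azurophil-gated cells, totals without the gate genes gave 1061 and 941. Median genes per cell were 401 in members and 594 in other WT cells at 1000 UMIs, and 1614.5 and 1698 without thinning. The Retnlg-rich members numbered 38 with any Retnlg UMI, a split chosen after seeing the data. Of 1911 values for 273 genes, 128 values of 45 genes had another sign than reported, and 2 of these belonged to genes past 2-fold: Atf3 to 0.50 with each cell scaled before averaging and Car1 to -4.88 without marked doublets. No paired analysis was possible because each genotype had 1 library. Depth limits the Retnlg-rich members most, with 31544 UMIs in all.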
